A study of Mus musculus with 10 samples.

Results

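The immunoglobulin heavy chain variable segments are the 183 genes of the count table, out of 46316, whose symbol begins with Ighv. They were described by the share that each segment and each family held of all Ighv counts in each of 10 libraries of sorted mouse splenic B cells. The family of a segment is the part of its symbol between Ighv and the first hyphen, which gave 16 families of 1 (Ighv16) to 92 (Ighv1) members. Of the 183 segments, 172 had a count in at least 1 library, 11 had 0 counts in all 10 libraries, and 133 passed the filter on low counts used before testing.

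The libraries came from C57BL/6 mice in 3 groups. The pBIC mice carry floxed alleles of p53 and Blimp1 (p53F/F, Blimp1F/F), IKK2castopF/stopF and Cg1Cre/+, and develop a lymphoma that models the activated B cell type of diffuse large B cell lymphoma (ABC-DLBCL). The pBIC10 mice carry all of these alleles and IL-10F/F in addition, so that their lymphoma lacks the cytokine IL-10. The YC controls (YFPstopF/+ with Cg1Cre/+) carry none of the lymphoma alleles, and share Cg1Cre/+ with both other groups. Cre made from the immunoglobulin Cγ1 locus acts in activated B cells, germinal centre B cells among them. Per the labels, pBIC10 had 3 libraries (replicates 1 and 2 from females, replicate 3 from a male), pBIC had 3 (all from females) and YC had 4 (replicate 3 from a male, the others from females). The lymphoma cells were sorted as B220+GFP+ cells from moribund mice. The series description gives the YC cells as normal B220+YFP+ germinal centre B cells, taken 10 days after the second of the immunisations with sheep red blood cells. For YC, several labels carry the wording of the lymphomas instead, and the series description was followed. The sources used here give neither ages nor any shared origin of the mice of a group (a litter, or a transplanted tumour). The authors took the pBIC and YC libraries over from an earlier series and added the pBIC10 libraries, so that pBIC10 and its series cannot be told apart.

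An antibody heavy chain gene is assembled in each developing B cell by V(D)J recombination, which joins a variable (V), a diversity and a joining segment upstream of the constant genes. The V segment encodes most of the variable part of the heavy chain, and a B cell as a rule expresses a productive rearrangement of a single allele. Daughter cells inherit it, so that the V segment used is a mark of clonal descent, although unrelated B cells can use the same V segment. Germinal centre B cells mutate the rearranged V segment further. V segments of a family resemble each other in sequence, and reads can fall on a relative of the segment they came from.

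The germline sequences of 7 segments are printed because the results turn on how alike the 2 leading segments and their relatives are. They are 120 bases of each coding strand, 5′ to 3′, from the GENCODE M21 (GRCm38) transcripts, and start at base 101 of the leading segment's transcript. Capitals mark bases that differ from the leading segment of the family, Ighv7-3 for the first set and Ighv8-11 for the second set.
Ighv7-3: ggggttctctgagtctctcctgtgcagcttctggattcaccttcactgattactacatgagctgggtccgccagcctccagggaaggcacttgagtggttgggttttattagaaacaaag
Ighv7-2: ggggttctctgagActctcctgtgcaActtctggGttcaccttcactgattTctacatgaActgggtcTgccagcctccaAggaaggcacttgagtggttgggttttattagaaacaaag
Ighv7-4: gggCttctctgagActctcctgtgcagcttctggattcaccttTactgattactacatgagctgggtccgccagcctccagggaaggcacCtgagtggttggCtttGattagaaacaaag
Ighv8-11: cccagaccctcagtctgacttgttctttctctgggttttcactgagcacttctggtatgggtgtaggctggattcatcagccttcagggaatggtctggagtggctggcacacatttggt
Ighv8-8: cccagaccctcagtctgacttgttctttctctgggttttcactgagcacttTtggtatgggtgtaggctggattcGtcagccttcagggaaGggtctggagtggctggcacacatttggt
Ighv8-5: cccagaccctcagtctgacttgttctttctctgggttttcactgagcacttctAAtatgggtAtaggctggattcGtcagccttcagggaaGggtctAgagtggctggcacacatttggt
Ighv8-12: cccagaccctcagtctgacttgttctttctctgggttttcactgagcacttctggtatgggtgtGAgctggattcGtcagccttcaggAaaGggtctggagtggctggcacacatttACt
In this stretch Ighv7-2 differs from Ighv7-3 at 7 bases and Ighv7-4 at 6. From Ighv8-11, Ighv8-8 differs at 3 bases, Ighv8-5 at 6 and Ighv8-12 at 7.

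Library depth ranged from 17.1 to 19.1 M counts (M is 1000000) in the lymphoma groups and from 12.6 to 14.3 M in YC, and no library was a copy of another. A sum over 6 B cell markers, Cd79b and Cd22 among them, was 6381 to 8023 CPM (counts per 1000000 counts) in YC, 1634 to 3045 in pBIC and 1994 to 3586 in pBIC10. All 6 were called lower in pBIC than in YC (by the edgeR test described with the single segments), and 5 of 6 in pBIC10, where Cd79a, a subunit of the B cell receptor, had no call (adjusted p = 0.265). The sum over 6 germinal centre B cell markers was 552 to 912 CPM in YC, 42.2 to 59.2 in pBIC and 33.7 to 38.5 in pBIC10, and all 6 were called lower in each lymphoma. Bcl6, a transcription factor that marks germinal centre B cells, was at 168 to 321 CPM in YC and 3.91 to 9.49 in the lymphomas. The sum over 7 plasma cell markers was 1452 to 3106 CPM in YC, 573 to 990 in pBIC and 398 to 434 in pBIC10. Against YC, 6 of the 7 were called lower in each lymphoma. Mzb1 had no call in pBIC, at a mean of 281 CPM against 343 in YC (adjusted p = 0.381). Tnfrsf17 had no call in pBIC10 (adjusted p = 0.0613). Jchain, a defining plasma cell marker that joins antibody units, was at 666 to 1897 CPM in YC, 29.4 to 337 in pBIC and 3.22 to 9.07 in pBIC10, and Sdc1, the surface marker CD138, was at 12.4 to 36.8 CPM in YC and at most 1.18 in the lymphomas. The sum over 7 T cell markers was 282 to 422 CPM in YC against 31.7 to 61.004 in the lymphomas. In pBIC10 most of it was Lck, a kinase, at 36.5 to 57.7 CPM, and the other 6 markers summed to 2.40 to 5.43 CPM in pBIC10, 14.2 to 32.0 in pBIC and 84.6 to 253 in YC. All 6 were called lower in pBIC10 than in pBIC, and Lck was called higher. Myeloid markers summed to 99.03 to 163 CPM in YC, 9.16 to 60.1 in pBIC and 11.9 to 13.6 in pBIC10. Erythroid markers summed to 184 to 543 CPM in YC, 32.2 to 662 in pBIC and 630 to 1628 in pBIC10. In bulk libraries, fewer cells of a type and less RNA per cell cannot be told apart.

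Each lymphoma group was dominated by a segment of its own, and YC was not dominated by any. Ighv7-3 made up 70.5%, 69.9% and 67.4% of the Ighv counts of pBIC10 replicates 1 to 3. In replicate 1 its exact 95% binomial interval was 69.9 to 71.1%. All 3 pBIC10 libraries thus had the same leading segment at nearly the same share. Ighv8-11 made up 51.6%, 58.3% and 59.1% in pBIC replicates 1 to 3, and the interval in the smallest of these libraries, replicate 2, was 57.0 to 59.7%. Such intervals cover counting error only, since reads are not independent molecules.

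The 4 YC libraries had 4 different leading segments. They were Ighv6-6 with 5.90% in replicate 1, Ighv5-17 with 7.46% in replicate 2, Ighv9-3 with 3.73% in replicate 3 and Ighv1-39 with 10.9% in replicate 4. The share of the leading segment was 69.3 ± 1.65% in pBIC10 (SD, n = 3), 56.3 ± 4.13% in pBIC (SD, n = 3) and 7.00 ± 3.02% in YC (SD, n = 4), and the ranges of the 3 groups did not overlap. Both lymphoma groups together exceeded YC by 55.8 percentage points (exact two-sided permutation test, 6 against 4 libraries, p = 0.00952, adjusted p = 0.0476 over 20 tests of 5 measures in 4 comparisons). That p is the smallest that 6 against 4 libraries can give. The smallest possible values are 0.1 for 3 against 3 and 0.0571 for 3 against 4, so no comparison of these measures between single groups could pass 0.05. Leaving out any 1 library ended this call and the other calls of this comparison (adjusted p = 0.0795 or 0.105), since fewer libraries raise the smallest p that can be reached. The test counts each library as independent, although all libraries of a lymphoma group share their leading segment, and p-values then measure only the spread between these libraries.

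The segment in second place was also shared within each lymphoma. Ighv7-2 held 26.1%, 26.7% and 25.8% in pBIC10, and with Ighv7-3 it was enough to reach 90% of all Ighv counts in each of the 3 libraries. Ighv8-8 held 12.2%, 12.7% and 13.9% in pBIC, where 8, 6 and 4 segments were needed to reach 90%. In YC 65, 73, 75 and 69 segments were needed. The number of segments holding at least 1% of the Ighv counts was 3, 3 and 4 in pBIC10, 9, 7 and 8 in pBIC and 35, 35, 40 and 32 in YC.

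**Figure D1:**
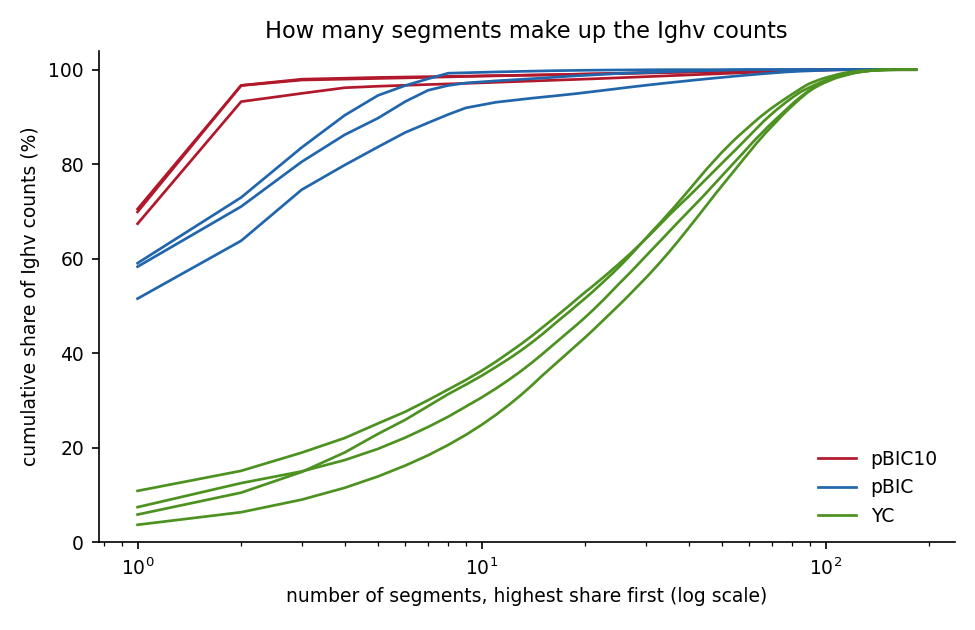
Cumulative share of Ighv counts (%, vertical axis) against the number of segments taken from the highest share downwards (log scale), 1 line per library, coloured by group. The pBIC10 lines pass 90% at 2 segments, the pBIC lines at 4 to 8 and the YC lines at 65 to 75.

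Evenness was summarised by the effective number of segments, the exponential of the Shannon entropy of the shares, which equals the number of segments when all hold the same share. It was 2.27, 2.27 and 2.79 in pBIC10, 7.17, 4.76 and 4.02 in pBIC and 70.8, 78.4, 87.0 and 69.2 in YC. The ranges did not overlap, and the lymphomas together were 72.4 lower than YC (exact two-sided permutation test, p = 0.00952, adjusted p = 0.0476). Taking each library's own leading segment out left 2.06, 2.004 and 3.35 in pBIC10, 13.96, 8.30 and 5.72 in pBIC and 72.9, 83.6, 87.6 and 78.9 in YC. Counted over families in place of segments, the effective number averaged 1.21 in pBIC10, 1.37 in pBIC and 4.84 in YC. Over families the ranges of the lymphomas did overlap, with 1.13 to 1.35 in pBIC10 and 1.11 to 1.66 in pBIC.

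Ighv counts as a whole also differed in level. They made up 0.134%, 0.147% and 0.125% of all counts in pBIC10, 0.0444%, 0.0267% and 0.0502% in pBIC, and 0.438%, 0.478%, 0.147% and 0.346% in YC. The lowest YC library, replicate 3 at 0.147277%, lay just above the highest pBIC10 library at 0.146965%, while pBIC was below both other groups. The mean of the lymphomas was lower than that of YC by 0.264 percentage points (exact two-sided permutation test, p = 0.00952, adjusted p = 0.0476). YC replicate 3 also had the lowest plasma cell marker sum of its group, at 1452 CPM against 2675 to 3106. The sums of 6 B cell and of 6 germinal centre B cell markers were also lower in every lymphoma library than in every YC library. The part of these cell types in the Ighv level was not tested.

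Set against the heavy chain constant genes, the lymphoma groups lay on opposite sides of YC. There were 0.167, 0.189 and 0.176 Ighv counts per constant count in pBIC10, 0.114, 0.0867 and 0.108 in pBIC and 0.163, 0.159, 0.120 and 0.156 in YC. pBIC was lowest and pBIC10 highest, with no overlap between single groups. The difference of the lymphomas together from YC was -0.00952 (exact two-sided permutation test, p = 0.724, adjusted p = 0.724), and it averages groups on opposite sides of YC. With the segments that RefSeq types as pseudogenes left out, Ighv7-3 among them, pBIC10 differed from YC by -0.0861 on average, and the lymphomas together differed from YC by -0.0649 (exact permutation test, adjusted p = 0.0381). This exclusion takes out the leading segment of pBIC10 and keeps all constant counts. The lower ratio of pBIC10 follows from it, so that this p is no separate result.

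**Figure D2:**
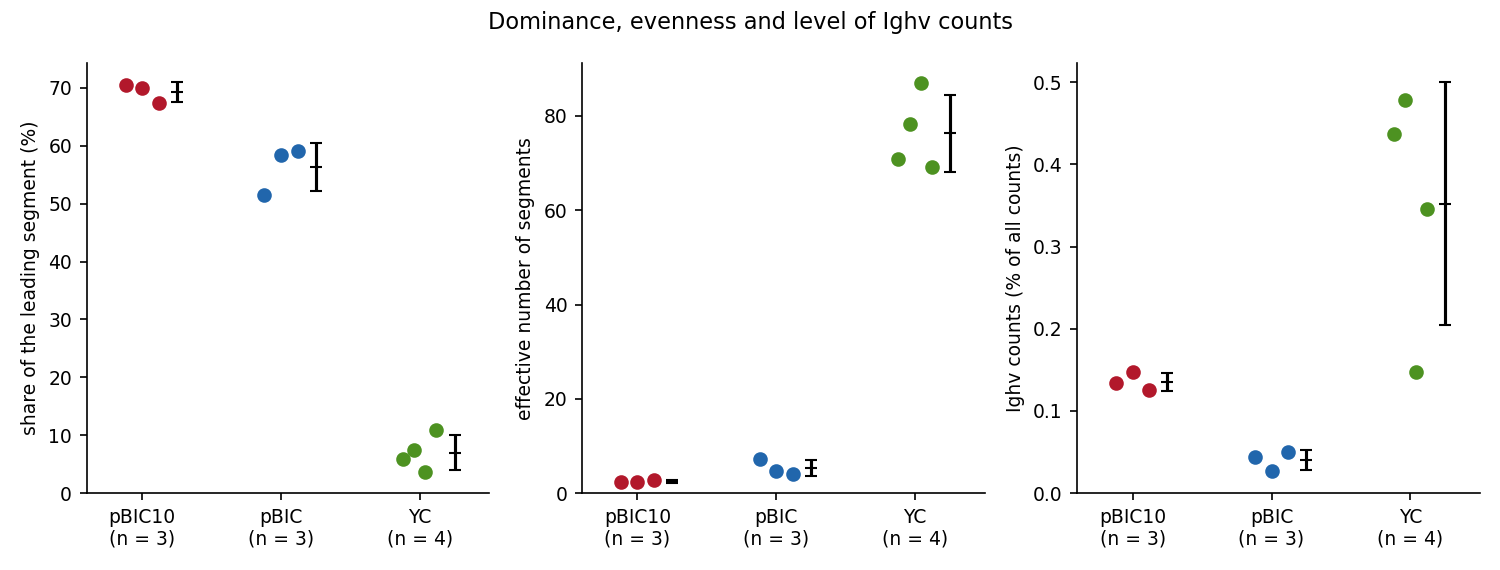
Share of the leading segment (%), effective number of segments and Ighv counts as a percentage of all counts (vertical axes), with 1 point per library and the mean ± SD of each group beside the points. The 6 lymphoma libraries lie between 51.6 and 70.5% in leading share and the 4 YC libraries between 3.73 and 10.9%.

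By family, Ighv7 held 97.9%, 98.1% and 94.6% of Ighv counts in pBIC10. In the other groups it held at most 0.127% (pBIC) and 0.346 to 1.90% (YC). Ighv8 held 87.4%, 93.5% and 98.1% in pBIC, 0.0198 to 0.108% in pBIC10 and 1.45 to 5.53% in YC. Ighv7 has 4 members and Ighv8 has 16, so that both lymphomas were dominated by families that are small beside Ighv1.

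Ighv1, the family with most members, led in all 4 YC libraries with 48.7%, 55.1%, 57.2% and 67.3%. It held 9.84%, 5.42% and 1.70% in pBIC and 0.706%, 0.925% and 1.96% in pBIC10. Ighv5 followed in YC with a mean of 9.23 ± 3.15% (SD, n = 4), then Ighv9 with 6.90 ± 1.86% and Ighv2 with 6.81 ± 2.32%. The single member of Ighv16 had 0 counts in all libraries.

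**Figure D3:**
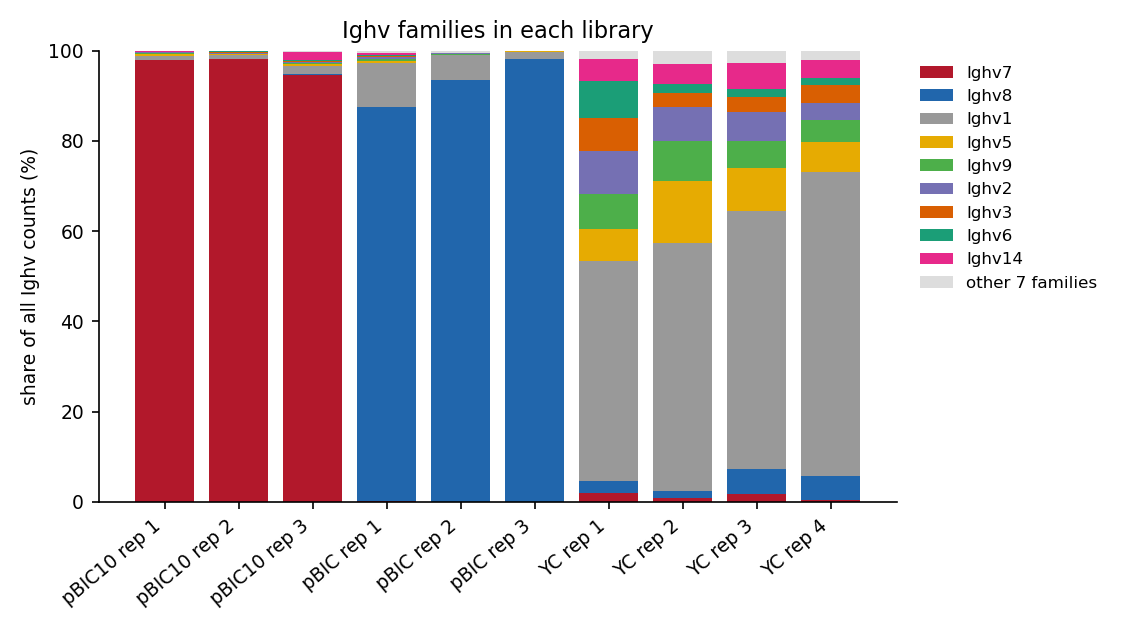
Share of all Ighv counts (%, vertical axis) held by each family in each library, stacked to 100%, with the other 7 families summed. The bars of pBIC10 are almost wholly Ighv7 (94.6 to 98.1%), those of pBIC mostly Ighv8 (87.4 to 98.1%), and those of YC are divided among many families.

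The segments of Ighv7 were compared with Ighv7-3 within each library, because such a ratio does not depend on the scaling between libraries. Ighv7-2 counts equalled 37.0%, 38.2% and 38.3% of Ighv7-3 counts in pBIC10. In YC they equalled 4.81%, 34.8%, 20.9% and 29.8%. The ratio was nearly constant in pBIC10 and varied widely in YC. Ighv7-4 counts equalled 1.64%, 1.87% and 1.77% of Ighv7-3 in pBIC10, and Ighv7-1 counts 0.192%, 0.233% and 0.300%. In pBIC, Ighv7-3 had 6, 1 and 1 counts, Ighv7-1 had 4, 0 and 0, and Ighv7-2 and Ighv7-4 had 0 in all 3 libraries.

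In pBIC the ratios of the more abundant relatives to Ighv8-11 were also alike between libraries, though less closely. Ighv8-8 counts equalled 23.7%, 21.8% and 23.5% of Ighv8-11 counts in pBIC replicates 1 to 3, and Ighv8-5 counts 20.95%, 16.2% and 17.9%. Ighv8-10 followed with 10.1%, 9.80% and 11.5%, then Ighv8-9 with 7.43%, 6.00% and 7.13%. Ighv8-13 and Ighv8-6 lay between 3.52 and 4.13% and between 1.71 and 2.70%. The other 9 relatives each stayed at or below 0.245%, on at most 10 counts, and their ratios varied more, from 0.0245 to 0.181% for Ighv8-14.

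In YC the same ratios were different. Ighv8-12 exceeded Ighv8-11 there, with counts of 232%, 142%, 231% and 354% of those of Ighv8-11, against 0.245%, 0.235% and 0.145% in pBIC. Ighv8-8 stood at 89.9%, 94.0%, 93.6% and 169% and Ighv8-5 at 64.8%, 60.1%, 60.9% and 90.1%. For both, all YC libraries were above all pBIC libraries. Ighv8-10 went the other way, with 0 to 3.57% in YC.

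**Figure D4:**
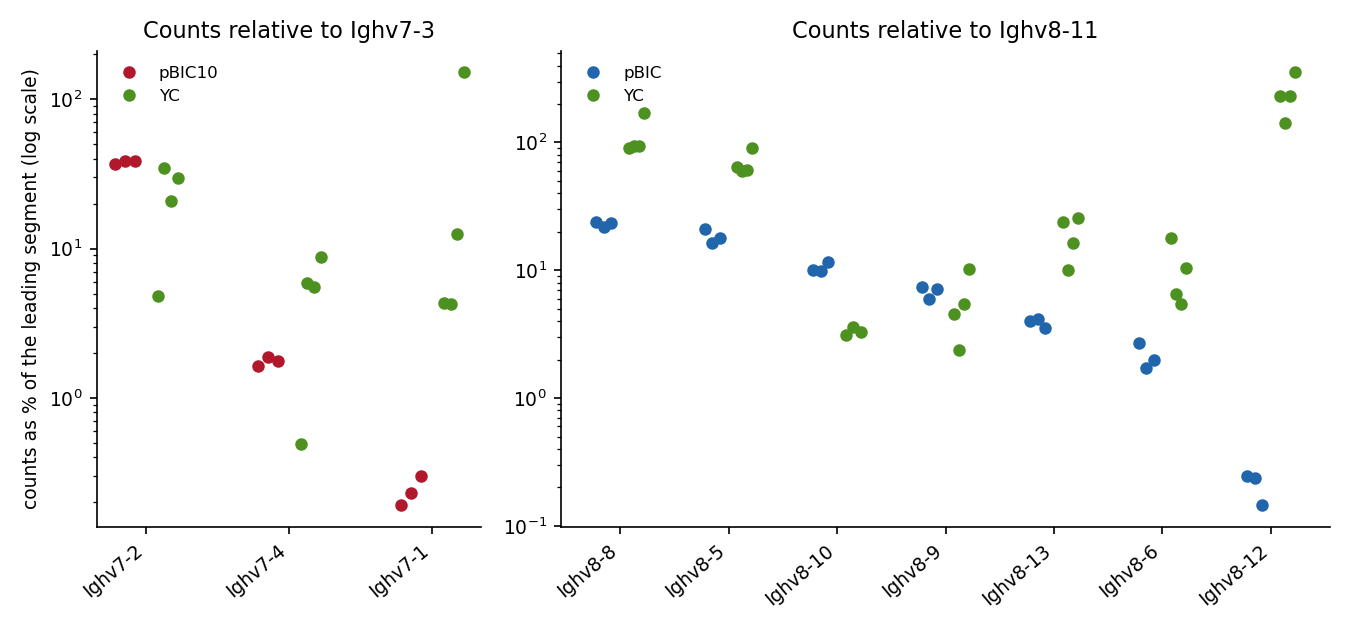
Counts of each relative as a percentage of the counts of the leading segment in the same library (log scale), for Ighv7-3 in pBIC10 and YC and for Ighv8-11 in pBIC and YC, with 1 point per library. A YC library with 0 counts of Ighv8-10 is not drawn. The pBIC10 points of Ighv7-2 lie between 37.0 and 38.3%, and its YC points span 4.81 to 34.8%.

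How far reads of the leading segment could be counted for a relative was described from the germline transcripts, by asking how many of their windows of 50 bases, the read length, recur in the relative. Of the 312 windows of Ighv7-3, 21 (6.7%) recur without mismatch in Ighv7-2, whose aligned bases are 91.5% identical, and 144 come within 2 mismatches. Ighv7-4 is more alike over its length, at 93.3% identity, yet has 0 identical windows and 103 within 2 mismatches, and had far fewer counts than Ighv7-2 in pBIC10. Of the 309 windows of Ighv8-11, 34 recur in Ighv8-8 (96.1% identity), 49 in Ighv8-5 (95.5%), 18 in Ighv8-12 (92.7%) and 0 in Ighv8-10 (87.4%). Within 2 mismatches the numbers were 192 for Ighv8-8, 148 for Ighv8-5, 85 for Ighv8-12 and 19 for Ighv8-10.

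Counts on relatives in pBIC were set beside these numbers. Ighv8-8 had more counts than Ighv8-5, with fewer identical windows and more windows within 2 mismatches. Ighv8-12 shares 18 identical windows with Ighv8-11, and 85 within 2 mismatches, and was at or below 0.245% of its counts. Ighv8-10 shares 0 identical windows, and 19 within 2 mismatches, and was at 9.80 to 11.5%. The rearranged and possibly mutated V sequences of the lymphomas are not in the files used here. The source of the counts on relatives, transcripts of those segments or reads of the leading one, was not tested, and their values are uncertain in that sense. Across all 183 segments the median share of windows that recur in another segment was 15.9%, and 49 segments had none.

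Between the lymphoma groups, 23 of the 133 tested segments differed at an adjusted p under 0.05 (edgeR's quasi-likelihood test, Benjamini-Hochberg over the 17718 genes tested), 15 higher and 8 lower in pBIC10. That is 17.3% of the segments against 30.7% of all genes tested, of which 15.6% were higher and 15.1% lower. For 41 of the 133 segments, and for 41.8% of all genes tested, no library of either group lay within the range of the other. The median log2 fold change of the 133 was 1.09, against -0.01 over all genes. Most of the 133 reached the filter through their YC counts, and 15 segments passed it when pBIC10 and pBIC were fitted alone, of which 12 were called. DESeq2 called 37 of the 133, 29 higher and 8 lower.

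Ighv7-3 was at 954, 1032 and 802 CPM in pBIC10 and 0.322, 0.0565 and 0.0536 CPM in pBIC, with all pBIC10 libraries above all pBIC libraries. Its log2 fold change was 12.57 ± 1.21 (SE, edgeR adjusted p = 2.25e-05). Ighv7-2 had 18726 counts in the pBIC10 group and 0 in pBIC, at least 6559-fold higher when 3 counts over the pBIC group are taken as the floor. Ighv7-4, with 873 counts against 0, was at least 306-fold higher. Ighv7-1 rose by 4.79 ± 0.89 (log2, adjusted p = 0.00135), from 4 counts in pBIC to 119.

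Ighv8-11 was at 0.177, 0 and 0.410 CPM in pBIC10 and 218, 168 and 295 CPM in pBIC, which is -10.07 ± 0.53 on the log2 scale (SE, edgeR adjusted p = 2.02e-07). The 6 relatives Ighv8-5, Ighv8-6, Ighv8-8, Ighv8-9, Ighv8-10 and Ighv8-13 were lower in pBIC10 too. For Ighv8-8 the change was -8.40 ± 0.70, and for Ighv8-5 it was -7.30 ± 0.65. Ighv8-10 had 2 counts in pBIC10 and 1339 in pBIC, a ratio of 637 with an exact 95% counting interval from 176 to 5266. Such an interval uses counts summed over each group and leaves out the spread between libraries. Ighv8-12, the relative that led the family in YC, had 11 and 25 counts in the lymphoma groups and was not called (adjusted p = 0.427).

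The only segment outside Ighv8 that was lower in pBIC10 was Ighv1-19, named here after its values were seen. It had 1, 4 and 13 counts in pBIC10 and 242, 180 and 135 in pBIC, or -4.90 ± 0.67 on the log2 scale (edgeR adjusted p = 2.55e-04). The 11 segments outside Ighv7 that were higher in pBIC10 were low in both lymphomas, with at most 419 counts over the pBIC10 group, and the number of calls depended on pBIC replicates 2 and 3. Without pBIC replicate 2 the count of calls higher in pBIC10 fell from 15 to 5, as it did without pBIC replicate 3, and it was 16 without pBIC replicate 1. A lost call did not always mean a smaller fold change. Ighv3-8 had 5, 7 and 12 counts in pBIC10 and 0 in every pBIC library, and its fitted log2 fold change was 5.88 (adjusted p = 0.0181) with all libraries, 5.87 (0.0627) without pBIC replicate 2 and 5.86 (0.0569) without pBIC replicate 3. Ighv1-2, with 1, 4 and 2 counts against 0, was fitted at 4.17 (adjusted p = 0.0367), and at 4.16 (0.0845) and 4.15 (0.0745) without these libraries. Other settings ended these calls too. Ighv1-2 was at 4.15 (0.0725) without pBIC replicate 1, 4.31 (0.0568) without pBIC10 replicate 3 and 4.32 (0.0506) in females alone. Without pBIC10 replicate 2 it fell to 3.54 (0.112). Ighv3-8 fell to 5.53 (0.0586) without pBIC10 replicate 3. Such fitted values depend on the prior count, since pBIC is at 0. Ighv14-3 stood at 5.01 ± 1.54 (adjusted p = 0.0287) with all libraries and at 0.91 (adjusted p = 0.583) without pBIC10 replicate 3.

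Against YC, nearly all tested segments were lower in the lymphomas. In pBIC, 132 of 133 differed, 6 higher and 126 lower, against 54.1% of all genes tested (26.4% higher, 27.7% lower). In pBIC10, 131 of 133 differed, 3 higher and 128 lower, against 51.7% of all genes (24.8% higher, 26.9% lower). Libraries did not overlap for 130 of the 133 segments in pBIC and 128 of the 133 in pBIC10, and for 54.2% and 61.0% of all genes. The median log2 fold changes were -7.98 in pBIC and -6.73 in pBIC10, against 0.02 and 0.01 over all genes. A segment that passed the filter through YC alone had to be lower in the lymphomas, so these counts describe the libraries and are no support for more. The 2 comparisons share their YC libraries.

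The 6 segments higher in pBIC than in YC were all of Ighv8. Ighv8-11 was at 21.3, 13.8, 15.6 and 23.8 CPM in YC, below all pBIC libraries, with a log2 fold change of 3.61 ± 0.32 (edgeR adjusted p = 4.16e-06). Ighv8-10 was at 22.1, 16.5 and 34.0 CPM in pBIC and at most 0.784 in YC (5.62 ± 0.58, adjusted p = 1.09e-05). Ighv8-9 rose by 3.77 ± 0.53 and Ighv8-5 by 1.66 ± 0.42 (log2). Ighv8-8 was called at 1.28 ± 0.41 (adjusted p = 0.0201) although its highest YC library, 40.2 CPM, exceeded the lowest pBIC library at 36.7. Ighv8-13 was at 1.20 ± 0.46 (adjusted p = 0.0433). Leaving out pBIC replicate 1 or 3, or YC replicate 1, 2 or 3, ended the Ighv8-13 call (adjusted p from 0.0530 to 0.111). The Ighv8-13 call was also lost with DESeq2 size factors in edgeR (0.0522) and with library totals alone (0.0520). Sex as a covariate (0.0931) and females alone (0.106) ended it too. Leaving out pBIC replicate 3 or YC replicate 2 or 3 ended the Ighv8-8 call (0.0548 to 0.0856). The Ighv8-8 call was also lost with no filter on low counts (0.0507). The segment without a call, Ighv8-6, was at 1.27 ± 0.54 (adjusted p = 0.0590).

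The 3 segments higher in pBIC10 than in YC were all of Ighv7. Ighv7-3 was at 75.6, 30.6, 18.0 and 4.06 CPM in YC, all below pBIC10, and its log2 fold change was 4.86 ± 0.70 (edgeR adjusted p = 1.65e-04). Ighv7-2 was at 353, 395 and 307 CPM in pBIC10 and 1.21 to 10.6 in YC (6.21 ± 0.56, adjusted p = 2.10e-05). Ighv7-4 rose by 4.23 ± 0.50 (adjusted p = 5.29e-05). The segments without a call were Ighv7-1 at -0.55 ± 0.60 (adjusted p = 0.462) and Ighv12-3 at 0.18 ± 0.76 (adjusted p = 0.856).

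Among the segments lower in the lymphomas, Ighv9-3, which led the YC means, was at 202, 251, 55.7 and 105 CPM in YC and at most 1.23 CPM in the lymphomas. Its log2 fold change was -8.38 ± 0.85 in pBIC (adjusted p = 1.55e-05) and -7.47 ± 0.80 in pBIC10 (adjusted p = 2.06e-05). Ighv3-2, Ighv3-8, Ighv2-4 and Ighv1-2 had 0 counts in all pBIC libraries and 957 to 1338 counts over the YC group, at least 327-fold to 457-fold lower. In pBIC10 the same 4 segments had 7 to 24 counts over the group.

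Ighv1-84 had 4 counts in pBIC10 against 2557 in YC, or -9.17 ± 1.08 on the log2 scale (adjusted p = 4.13e-05), and 1 count in pBIC. Ighv1-75 had 3 counts in pBIC10 against 2150, a ratio of 699 with an exact 95% counting interval from 239 to 3393, again without the spread between libraries. Ighv3-7 had 0 counts in pBIC10 against 346 and was at least 112-fold lower. Ighv1-71 and Ighv1-62-2 had 0 counts in pBIC10 and 2975 and 474 counts in YC. All 253 windows of 50 bases of each recur in another segment, which leaves the division of their counts uncertain.

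The counts outside Ighv7 and Ighv8 show what else the lymphoma libraries held. There were 448, 463 and 1221 such counts in pBIC10, 989, 330 and 177 in pBIC, and 56117, 58793, 19584 and 44955 in YC. In CPM, over all counts of a library, that is 26.2, 27.0 and 65.7 in pBIC10, 55.6, 17.2 and 9.53 in pBIC and 1367 to 4670 in YC. The 6 T cell markers other than Lck summed to 5.43, 2.40 and 3.28 CPM in pBIC10 and 14.2, 22.0 and 32.0 CPM in pBIC. The 6 B cell markers summed to 3140, 3586 and 1994 CPM in pBIC10 and 3045, 1634 and 1696 CPM in pBIC. The library with most of these Ighv counts thus had the highest B cell sum in pBIC and the lowest in pBIC10. In each group that library also had the lowest share of the joining segment Ighj4, 94.9% in pBIC10 and 92.5% in pBIC. The plasma cell marker sum was the lowest of its group in pBIC10 replicate 3 (398 CPM) and in pBIC replicate 1 (573 CPM). The part of other cells in these counts was not tested.

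In pBIC all 3 libraries shared their leading minor segment. Ighv1-19 held 3.06%, 3.52% and 1.45% of all Ighv counts there, which was 24.5%, 54.5% and 76.3% of the counts outside Ighv7 and Ighv8. It held 1.27 to 1.92% of Ighv counts in YC, so that its share in pBIC replicate 3 lay within the YC range. Only 5.4% of its windows of 50 bases recur in another segment. Ighv1-26 came next in pBIC replicates 1 and 2 with 1.75% and 0.528% and had 0 counts in replicate 3.

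In pBIC10 the leading minor segment differed between libraries. It was Ighv5-9 with 42 counts in replicate 1, Ighv3-6 with 53 in replicate 2 and Ighv14-3 with 405 in replicate 3. Ighv14-3 held 1.74% of Ighv counts in replicate 3 against 0.0305% and 0.0278% in replicates 1 and 2, and 1.21 to 2.11% in YC. The library from the male was thus the only pBIC10 library with a minor segment above 1%, other than the Ighv7 relatives.

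The profile of minor segments was set beside the mean YC profile over the 163 segments outside Ighv7 and Ighv8, as a description across segments. Spearman's rho was 0.65, 0.76 and 0.82 in pBIC10, 0.81, 0.41 and 0.27 in pBIC, and 0.89 to 0.94 in YC. Each YC library was set beside the mean of the other YC libraries, without itself. The order follows the number of counts behind the profile in both lymphoma groups, from 177 counts (rho 0.27) to 989 (0.81) in pBIC and from 448 (0.65) to 1221 (0.82) in pBIC10.

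Similarity between whole libraries was given as the overlap of their share profiles, the sum over segments of the lower of both shares. It was 95.8 to 98.3% for pairs within pBIC10, 88.7 to 94.8% within pBIC and 59.8 to 74.6% within YC. Between pBIC10 and pBIC it was 0.245 to 2.75%, between pBIC10 and YC 2.18 to 7.14%, and between pBIC and YC 2.85 to 14.4%. Within a lymphoma group every pair overlapped more than any YC pair, which follows from the shared leading segments. Over the segments outside Ighv7 and Ighv8 alone the order was different. The overlap was then 40.3 to 48.6% within pBIC10, 36.9 to 68.7% within pBIC and 60.1 to 76.05% within YC. pBIC10 overlapped with YC by 46.03 to 62.9%, pBIC with YC by 9.16 to 54.8%, and pBIC10 with pBIC by 9.19 to 39.7%. These lymphoma profiles rest on 177 to 1221 counts.

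The number of segments with at least 1 count was 94, 102 and 116 in pBIC10, 110, 56 and 31 in pBIC and 158, 162, 156 and 163 in YC. With at least 3 counts it was 53, 62 and 82 in pBIC10, 73, 25 and 17 in pBIC and 146, 152, 144 and 151 in YC. With at least 10 counts it was 16, 14 and 31 in pBIC10, 30, 11 and 9 in pBIC and 131, 138, 124 and 135 in YC. The number thus depends on the minimum in the lymphomas far more than in YC, and it depends on depth. Drawn down to the 5111 Ighv counts of pBIC replicate 2, the libraries had 55, 56 and 78 segments in pBIC10, 97, 56 and 28 in pBIC and 133, 145, 143 and 146 in YC. In pBIC the replicate with the fewest Ighv counts was therefore not the one with the fewest segments, which was replicate 3. Across libraries, 150 segments were seen in every YC library, 72 in every pBIC10 library, 24 in every pBIC library and 10 in all 10 libraries. There were 31 segments with counts in YC and 0 in all 6 lymphoma libraries.

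The Igh locus lies on mouse chromosome 12, with the V segments upstream of the constant genes. In the gene order of the RefSeq table (GRCm38.p6, an earlier build than that of the counts, used for order only), Ighv7-3 is the 51st and Ighv8-11 the 157th of the 183 segments counted from the constant genes. The direct neighbours of Ighv7-3, Ighv9-3 and Ighv15-1, held 46 and 0 counts in pBIC10, against 49451 for Ighv7-3. The direct neighbours of Ighv8-11, Ighv1-65 and Ighv1-66, held 0 and 1 counts in pBIC, against 12570. Segments directly beside a leading segment were thus at or near 0, as were most segments outside the leading family. In pBIC10 replicate 2, Ighv9-3 was the second most abundant minor segment, with 21 counts. Ighv8-10, 2 steps from Ighv8-11, held 1339 counts in pBIC.

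The 61 segments nearest to the constant genes held 99.0%, 98.9% and 97.6% of Ighv counts in pBIC10 and 0.204 to 2.44% in pBIC. The 61 farthest segments held 89.9%, 93.8% and 98.1% in pBIC and 0.519 to 0.930% in pBIC10. In YC the nearest, middle and farthest 61 segments held 23.5 to 39.5%, 22.6 to 39.7% and 32.5 to 39.0%.

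**Figure D5:**
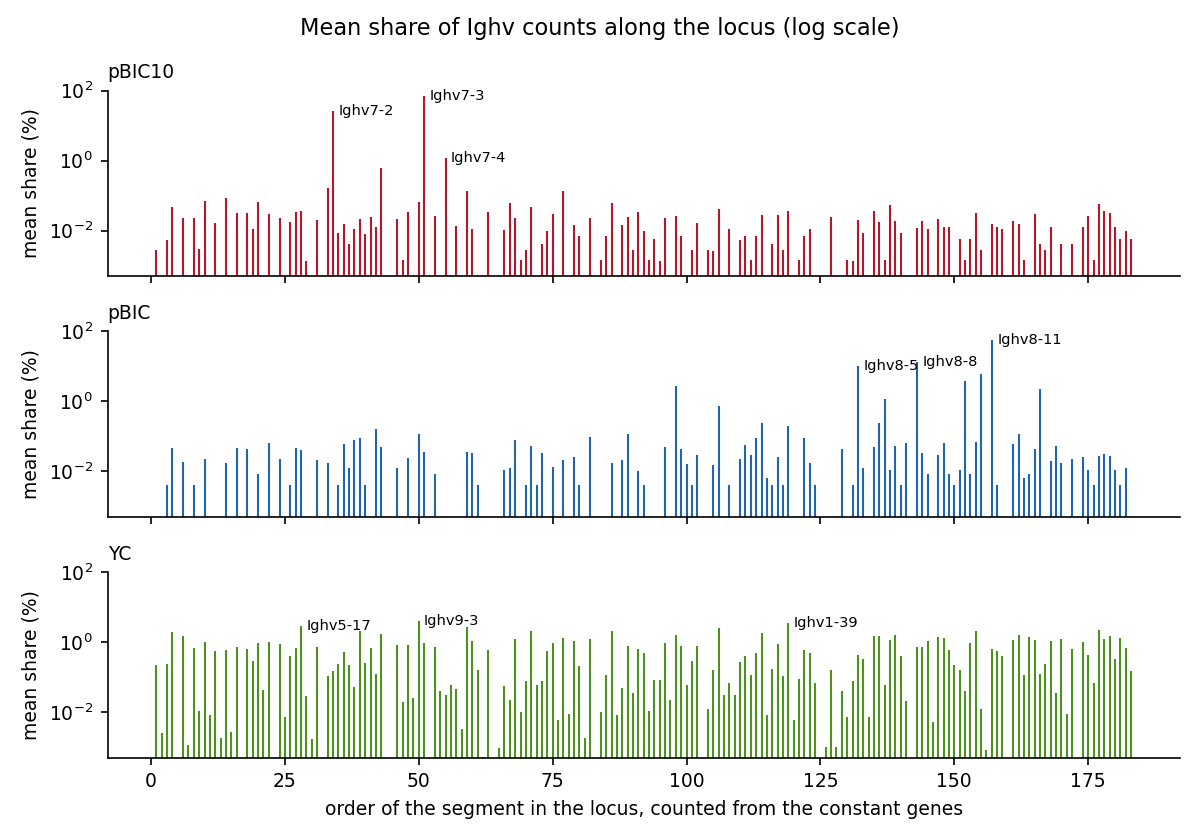
Mean share of Ighv counts in each group (%, log scale) for each segment, placed by its order from the constant genes. The 3 segments with the highest mean share are named in each panel. In pBIC10 the highest bars are Ighv7-3 at position 51 and Ighv7-2 at position 34. In pBIC they are Ighv8-11 at position 157, Ighv8-8 at 143 and Ighv8-5 at 132. In YC high bars stand along the whole locus.

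The reference tables disagree on Ighv7-3. RefSeq (GRCm38.p6) types 63 of the 183 segments as pseudogenes, Ighv7-3 among them, and GENCODE M21 types it as a functional V gene. Segments typed as pseudogenes by RefSeq held 70.7%, 70.2% and 67.8% of Ighv counts in pBIC10, 5.93 to 6.94% in pBIC and 5.49 to 6.84% in YC. Without Ighv7-3 they held 0.218 to 0.353% in pBIC10. By the GENCODE types, pseudogenes held 0.153 to 0.202% in pBIC10, 5.92 to 7.05% in pBIC and 6.63 to 7.80% in YC. Both reference tables type Ighv8-10 as a pseudogene. It held 5.99% of the summed Ighv counts of pBIC and 0.0138% of those of YC. Most of the pseudogene share in pBIC was thus this segment, which was not so in YC.

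The joining and constant parts of the heavy chain were also dominated by single genes in the lymphomas. Ighj4, the joining segment nearest to the constant genes, held 97.7%, 98.2% and 94.9% of joining segment counts in pBIC10 and 92.5%, 97.3% and 99.8% in pBIC. It held 32.1%, 29.8%, 41.3% and 30.6% in YC, below all lymphoma libraries. The joining segments were added after values had been seen. Both lymphomas thus shared the leading joining segment and differed in the V segment.

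Of the constant genes, Ighm, which encodes the IgM heavy chain, held 93.0%, 92.3% and 93.0% of heavy chain constant counts in pBIC10. Ighg3, the IgG3 heavy chain, held 80.6%, 75.4% and 86.6% in pBIC, where Ighe, the IgE heavy chain, held 4.17%, 12.9% and 2.94%. In YC Ighm held 33.7%, 37.3%, 58.4% and 29.1% and Ighg1 17.5 to 39.8%. Between the lymphomas, 4 of the 8 constant genes were called higher in pBIC10 and 2 lower, where 15.6% of all genes tested were called higher and 15.1% lower.

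Of 11 genes of V(D)J recombination and end joining, 8 were tested. Rag1 and Rag2, the recombinase genes, and Dntt, which adds bases at the joins, were too low to test. Rag1 stood at 0.769 CPM and Rag2 at 0.308 CPM in pBIC10 replicate 3, and both were at 0 counts in the other lymphoma libraries. Xrcc5, Lig4 and Nhej1, which act in end joining, were higher in pBIC10 than in pBIC (log2 fold change 0.73 ± 0.22, 0.87 ± 0.28 and 1.36 ± 0.30, adjusted p of 0.0256, 0.0300 and 0.00422). These 3 of 8 are 37.5%, near the 30.7% of all genes called in that comparison, and the median log2 fold change of the 8 was -0.12. Against YC, 1 was called higher and 2 lower in pBIC, and 2 higher and 1 lower in pBIC10. That is 37.5% of the 8 in each comparison, against 54.1% and 51.7% of all genes.

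Of the genes that accompany the heavy chain at the surface, Cd79a, a signalling subunit of the B cell receptor, was higher in pBIC10 than in pBIC (1.50 ± 0.33, adjusted p = 0.00450). Cd79b, its partner, was at 0.31 ± 0.23 (adjusted p = 0.339). Vpreb3, a relative of the surrogate light chain genes, was at 73.8, 90.4 and 42.4 CPM in pBIC10, 1.82, 1.70 and 0.536 in pBIC and 53.5 to 86.7 in YC. It was higher in pBIC10 than in pBIC by 5.67 ± 0.43 (log2, adjusted p = 2.91e-06) and stood at 0.07 ± 0.31 in pBIC10 against YC (adjusted p = 0.864). Vpreb1, Vpreb2 and Igll1, the surrogate light chain genes proper, were at or below 0.357 CPM in all libraries and were not tested.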

How the data were processed

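Poly(A) RNA of sorted cells was sequenced as single-end reads of 50 nt, per the labels. The authors deposited raw counts per gene, made with featureCounts after FastQC on GRCm39, per the submitters' processing notes. For the aligner, annotation, strand setting and treatment of reads with several matches, the step is not given in the sources used here, nor are versions. The members and lists were chosen with earlier results of these data known.

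Genes passing filterByExpr of edgeR 4.0.16 in R 4.3.3 (17718) were fitted over all 10 libraries, with TMM scaling, 1 coefficient per group and the robust quasi-likelihood test, and called at a Benjamini-Hochberg adjusted p under 0.05. Fold changes are first group minus second group. The SE is the fold change divided by the square root of F. CPM of genes are TMM-scaled. Shares use raw counts. The 5 measures per library were compared by exact permutation tests (scipy 1.17.1). A group at 0 counts was set to 3 counts over the group. The pipeline was tested on simulated data for pBIC10 against pBIC. It called 21 of 100 planted 2-fold changes and 75 of 100 planted 4-fold changes, with 3 false calls. A gene without a call can thus still differ by such amounts.

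Named segments held at least 5% of Ighv counts in a library, were among the 5 highest mean shares of a group, or were among the 5 largest changes in each direction of a comparison (called, at least 5 CPM in the higher group, no overlap). Members of the fixed lists and neighbours of the leading segments were named as well. Segments outside the rule that are named as leading minor segments, as relatives or for lack of a call were chosen after their values were seen. All 183 segments matched the RefSeq table (GRCm38.p6) and GENCODE M21 by symbol. Alternatives were other scalings, filters, tools and measures, sex, and leaving out libraries. Of the B cell and the germinal centre B cell marker lists, 1 gene each is not reported here, and sums and counts are over the other 6. The T cell sum without Lck was added after values had been seen.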

Additional observations from a re-analysis of the deposited data

Results flagged for a closer look

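In 7 of 47 examined groups of YC values, the highest of the 4 libraries stood apart from the nearest other by more than Dixon's 95% limit. Chance does so in about 1 in 20 groups that were not chosen by their values. That rate does not apply to the named segments, some of which were named for a high share in a single library, and the family Ighv6 includes Ighv6-6. Replicate 4 stood apart for Ighv1-39, at 10.9% of Ighv counts against 1.22% in the next library. Replicate 1 stood apart for Ighv6-6 (5.90% against 1.13%), for its family Ighv6 (8.18% against 1.90%), for Ighv3-6 (4.38% against 2.25%), for Ighv1-62-2 (0.634% against 0.137%) and for Ighv3-7 (0.364% against 0.118%). Replicate 2 stood apart for the family Ighv11, at 0.558% against 0.0527%. Ighv1-62-2 shares all its windows of 50 bases with another segment.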

How the results depend on the processing

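No paired analysis was possible because the labels give mouse numbers that no groups share. Results not named here kept their direction and their side of the threshold, apart from 41 weaker and 8 stronger calls among single-segment results, over scalings, filters, tools, sex, thinning and left-out libraries. The count of segments called between the lymphomas was 12 in a fit of these groups alone, where 15 were tested, 37 with DESeq2 1.42.0, and 14 to 25 with a library left out. For both lymphoma groups against YC, leaving out a library gave adjusted p of 0.0795 or 0.105, with differences from -0.333 to -0.222 in percent of all counts, 54.3 to 58.1 in leading share, -74.8 to -68.9 in effective number and -77.5 to -72.6 without the leading segment. Fewer libraries raise the smallest p that can be reached. The Ighv per constant ratio ranged from -0.0193 to 0.00116. Females alone gave -0.340, 53.8, -68.7 and -72.1 (adjusted p = 0.178). Pseudogenes of GENCODE left out, added after seeing the data, gave -0.241 (adjusted p = 0.0878), 57.3, -61.1 and -63.0 (0.0635). With pseudogenes of RefSeq left out, which removes Ighv7-3, the effective number without the leading segment turned to 14.5 between the lymphomas. The ratio to constant counts turned to -0.0425 between the lymphomas and -0.0861 in pBIC10 against YC, and for both lymphomas against YC it was -0.0649 (adjusted p = 0.0381). Between the lymphomas, Ighv1-39 turned to 0.083 with sex as a covariate, and with a library left out it ranged from -0.97 to 0.11 and Ighv1-75 from -1.10 to 3.03. None of these was called. Beyond these constructions the cause was not tested. Shares per base of transcript, also added after seeing the data, gave a mean leading share of 68.9% in pBIC10, 55.5% in pBIC and 6.72% in YC. Depth limits the minor segments, with as few as 177 counts in pBIC replicate 3.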
